A study of Homo sapiens with 82 samples.

Results

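RNA of HT29 cells, an established line of human colorectal adenocarcinoma, was compared between 48 h and 24 h of treatment with 10 μM rosiglitazone, a synthetic agonist of PPARG. The comparison used the 4 rosiglitazone libraries of each time point, chosen by their labels, which are 8 of the 82 samples of the series and 8 of its 32 RNA libraries. The drug was dissolved in DMSO, and the 4 DMSO libraries at 24 h and the 4 at 48 h, which received the carrier without a drug, are the background for the same extra day of culture. Before treatment all cells had been kept in phenol-red free McCoy's 5A medium with charcoal/dextran-treated serum. The 8 libraries under 10 μM GW3965, an agonist of the liver X receptors (LXRs), at the same times served as a second comparison. The remaining 8 RNA libraries, under 10 μM T0901317, another LXR agonist, entered the shared statistical fit but were not compared here. All libraries come from 1 cell line and the labels do not say whether replicates were separate cultures, so p-values measure the spread between these samples only.

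PPARG is a nuclear receptor that binds fatty acids and related ligands, pairs with a retinoid X receptor on DNA and activates genes for fatty acid storage, transport and oxidation. In the colon it is most abundant in the differentiated epithelium near the lumen. In colorectal cancer lines its agonists are known to slow proliferation. The integrated stress response, which recurs in these results, is a separate program in which the transcription factor ATF4 raises genes for amino acid uptake and synthesis when cells lack amino acids or meet other stresses.

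Between 24 and 48 h under rosiglitazone, 1763 of 23140 genes tested were called higher (7.62%) and 1168 were called lower (5.05%). Called genes had a fold change of 2 or more and, in the quasi-likelihood test of edgeR, a p under 0.01 after Benjamini-Hochberg adjustment. At the same adjusted p and any size of change, termed passed here, 5254 genes were higher (22.7%) and 4845 were lower (20.9%). Those shares are the background for the counts of list members given below. Genes of the integrated stress response, immediate early genes and EGFR ligands rose, whereas genes of DNA replication, mitosis and cholesterol synthesis fell. Most of this was also measured without the drug. Under DMSO, 1177 genes were called higher (5.09%) and 797 were called lower (3.44%), and 4556 (19.7%) and 4378 (18.9%) passed. The genes called higher under both conditions numbered 926, which is 52.5% of those under rosiglitazone and 78.7% of those under DMSO. The genes called lower under both numbered 547, or 46.8% and 68.6%. The time contrasts under rosiglitazone and DMSO share no library, but within either one the time point and the table of counts, with any batch that goes with it, cannot be told apart.

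**Figure D1:**
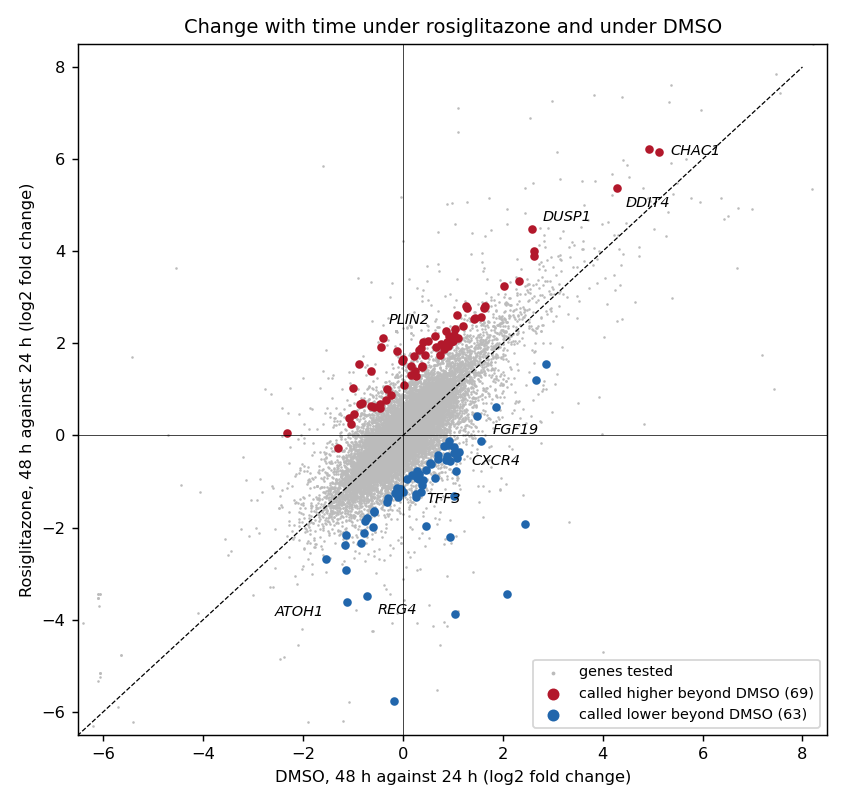
Change between 24 and 48 h under DMSO (horizontal axis) and under rosiglitazone (vertical axis) for each gene tested, both as log2 fold change, with the dashed line where both are equal. Coloured points are the 69 genes called higher and the 63 called lower beyond DMSO, and 16 genes lie outside the plotted range.

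The difference between the drug's time change and that of DMSO was tested for each gene in the same fit. Beyond DMSO, 69 genes were called higher (0.298%) and 63 were called lower (0.272%), and 320 (1.38%) and 246 (1.06%) passed. The shares that passed are the background for the list members said below to have passed beyond DMSO. Among the genes called higher were DUSP1, PLIN2, DDIT4 and CHAC1, and among those called lower were REG4, ATOH1 and TFF3. This contrast removes whatever all libraries of one table share. Of the 69 genes, 63 passed as higher with time under rosiglitazone itself, while under DMSO 34 passed as higher, 9 as lower and 26 did not pass. Of the 63 genes, 44 passed as lower under rosiglitazone and 27 passed as higher under DMSO. The count depended on single libraries, ranging from 38 to 111 higher and from 35 to 137 lower genes when 1 library at a time was left out, with the lowest counts without replicate 3 and the highest without replicate 1 of rosiglitazone at 48 h. Scaled by library size alone, the counts were 47 higher and 99 lower, so the share of higher genes went from 52.3% to 32.2%, and the median over all genes tested moved from 0.02 to -0.08 (log2).

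The 4 rosiglitazone libraries at 48 h were less alike than those at 24 h. In a principal component analysis of the 1000 most variable genes over the 16 rosiglitazone and DMSO libraries, the first component held 74.8% of the variance and separated the time points. Along it the rosiglitazone libraries at 48 h lay at 23.0 for replicate 1, 29.9 for replicate 2, 36.6 for replicate 3 and 31.5 for replicate 4, beside 17.5 to 21.8 for DMSO at 48 h. The second component, with 20.2%, separated the treatments. Of the 69 genes called higher beyond DMSO, replicate 3 was the highest of the 4 libraries in 56 and replicate 1 the lowest in 54. Of the 63 genes called lower, replicate 3 was the lowest in 39 and replicate 1 the highest in 36. Without both of these libraries, 61 genes were called higher and 71 lower. Total counts lay between 33090520 and 42120223 in the rosiglitazone libraries and between 30834003 and 39955727 in the DMSO libraries. The share of counts from mitochondrial genes lay between 1.85% and 3.04% in these 16 libraries, and scaling factors of the TMM method lay between 0.872 and 0.940 for rosiglitazone at 48 h and between 0.949 and 1.06 in the other groups.

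**Figure D2:**
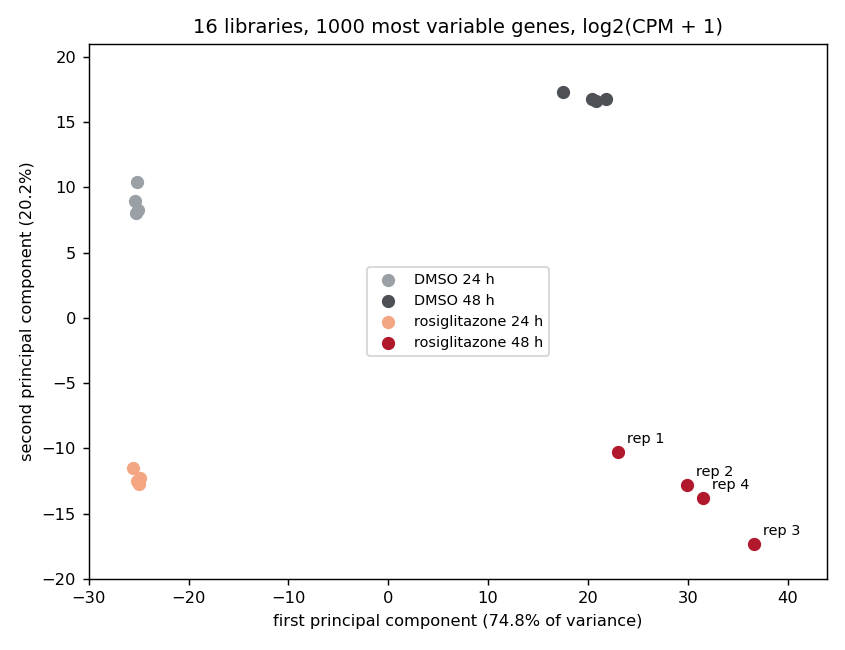
The 16 rosiglitazone and DMSO libraries along the first principal component (horizontal axis, 74.8% of variance) and the second (vertical axis, 20.2%), computed from log2(CPM + 1) of the 1000 most variable genes. Points are libraries, and the 4 rosiglitazone libraries at 48 h, labelled by replicate, spread from 23.0 to 36.6 on the first component while those at 24 h lie between -25.6 and -24.9.

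All 11 markers of colon epithelium on the list used here were measured. Their summed level was between 18300 and 23500 CPM (read counts scaled to library size with TMM factors, the level used throughout) in the 16 libraries. Most of this sum was KRT8 (8560 to 11100 CPM) and KRT18 (6850 to 8340 CPM), while CDX1 reached at most 3.61 CPM. Under rosiglitazone 3 of the 11 passed as higher and 5 as lower, and beyond DMSO only CDX2 passed, as lower. The summed level of 9 fibroblast markers was between 4.36 and 6.17 CPM at 24 h and between 7.59 and 8.5 CPM at 48 h of rosiglitazone, and between 3.78 and 7.66 CPM in DMSO, and COL1A2, DCN and PDGFRA were at 0. The sum of 8 leukocyte markers was between 562 and 605 CPM at 24 h and between 467 and 509 CPM at 48 h of rosiglitazone, and most of it was LYZ, while CD3E was at 0 and PTPRC reached at most 0.0245 CPM. The endothelial and adipocyte markers summed to between 1.43 and 1.64 CPM and then to between 2.69 and 4.19 CPM under rosiglitazone, and to between 0.713 and 2.03 CPM in DMSO, with RETN at 0. The part of these markers in the results was not tested. In RNA of whole cultures, fewer cells of a kind and less RNA per cell cannot be told apart.

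Among the 32 genes of the integrated stress response, 30 passed the filter on low counts and 28 of these passed as higher at 48 h under rosiglitazone, compared with 22.7% of all genes. Only ATF5 passed as lower. The median change of the list was 2.60 (log2) under rosiglitazone and 2.37 under DMSO, against 0.01 and 0.00 over all genes tested. Under DMSO 28 members also passed as higher. The promoters of 3 members are shown because they carry the letters TGATGNAA, a core of the sequence bound by ATF4 with a C/EBP partner. The search for these letters, on both strands of the 250 bases before each start site, was chosen after the expression values were known. Sequences are those of RefSeq for the GRCh38.p14 build, 5′ to 3′ on the strand of the gene, with the matching letters in capitals. CHAC1 lies on the plus strand (chr15:40953221-40953470), ASNS on the minus strand (chr7:97872409-97872658) and FGF21 on the plus strand (chr19:48755274-48755523).
CHAC1: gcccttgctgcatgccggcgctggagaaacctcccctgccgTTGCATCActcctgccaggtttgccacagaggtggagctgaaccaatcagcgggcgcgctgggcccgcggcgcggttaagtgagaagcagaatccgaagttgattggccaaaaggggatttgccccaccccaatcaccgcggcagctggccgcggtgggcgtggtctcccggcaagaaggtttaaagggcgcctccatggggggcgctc
ASNS: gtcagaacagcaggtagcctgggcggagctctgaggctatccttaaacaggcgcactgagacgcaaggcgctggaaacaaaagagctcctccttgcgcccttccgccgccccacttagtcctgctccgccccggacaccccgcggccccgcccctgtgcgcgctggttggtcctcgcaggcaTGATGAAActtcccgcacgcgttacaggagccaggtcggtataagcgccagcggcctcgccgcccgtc
FGF21: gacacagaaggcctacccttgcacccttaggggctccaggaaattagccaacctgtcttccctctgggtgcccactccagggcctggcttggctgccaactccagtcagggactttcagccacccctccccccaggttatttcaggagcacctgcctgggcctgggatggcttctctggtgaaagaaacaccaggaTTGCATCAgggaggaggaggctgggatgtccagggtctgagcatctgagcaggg
The match begins 209 bases before the start site in CHAC1, 68 in ASNS and 54 in FGF21, and in CHAC1 and FGF21 it reads TTGCATCA, the letters of the opposite strand. Of 23 list members with a promoter in the table, 4 held the letters (CHAC1, ASNS, SLC1A5 and FGF21), beside 3.89% of the 27305 genes in the table (3.14% of its 35116 promoters). The AP1 element TGANTCA, found for 8.06% of genes (6.57% of promoters), was in 0 of 15 matched immediate early genes, and the exact DR1 element of PPAR receptors (direct copies of AGGTCA spaced by 1 base), found for 0.022% of genes (0.0171% of promoters), was in 0 of 23 matched PPAR targets. A match describes the sequence only, and its lack only these letters in this window.

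CHAC1 (ENSG00000128965.6), a glutathione-degrading enzyme, was at 2.88, 3.35, 3.60 and 2.87 CPM at 24 h of rosiglitazone and at 223, 240, 239 and 204 CPM at 48 h. It was at 3.99 to 5.22 CPM under DMSO at 24 h and at 153 to 176 CPM at 48 h. The time points did not overlap under either condition, and the rosiglitazone libraries were below DMSO at 24 h and above it at 48 h. CHAC1 rose 71.6-fold under rosiglitazone (log2 6.16 ± 0.13, standard error, edgeR adjusted p = 2e-26), and its rise exceeded that under DMSO by 1.03 ± 0.17 (adjusted p = 0.00027). DDIT4 (ENSG00000168209.3), an inhibitor of mTORC1, was at 13.6, 16.4, 21.8 and 17.8 CPM at 24 h and at 706, 753, 759 and 680 CPM at 48 h. Under DMSO it went from between 23.5 and 30 CPM to between 484 and 528 CPM. As for CHAC1, the groups were fully apart, which for the time points under rosiglitazone was a condition of naming the largest rises. DDIT4 rose 41.7-fold (log2 5.38 ± 0.12, adjusted p = 8.1e-26 by edgeR), beyond DMSO by 1.11 ± 0.15 (adjusted p = 1.3e-05). SESN2, a sensor of leucine and further inhibitor of mTORC1, rose by 4.68 under rosiglitazone and by 3.71 under DMSO, with a difference of 0.97 (adjusted p = 0.00028 by edgeR). TRIB3, a pseudokinase that restrains ATF4 signalling, rose by 4.20 and 3.38 with a difference of 0.81 (adjusted p = 0.00043 by edgeR), and was named after its values were seen. These 4 genes are the members of the list that passed beyond DMSO. The number of members that passed as higher beyond DMSO was between 4 and 8 in the alternatives that tested for any change, and 0 in edgeR's test against a fold of 1.5.

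FGF21 (ENSG00000105550.3), a secreted metabolic hormone that is a target both of ATF4 and of PPARs, had 0 counts in all 4 rosiglitazone libraries and all 4 DMSO libraries at 24 h. At 48 h of rosiglitazone it was at 7.06, 11.3, 17.6 and 14 CPM, and at 2.17, 2.36, 4.44 and 2.88 CPM in DMSO. The drug group was above DMSO in each library at 48 h. Set against 3 counts over the group, the rise was at least 569-fold under rosiglitazone and at least 152-fold under DMSO. These bounds cover counting error only. The difference of FGF21 from DMSO did not pass in edgeR, and with 0 counts at 24 h under both conditions its size cannot be estimated. Among the other members, ATF4 itself rose by 1.51 (log2) under rosiglitazone and 1.3 under DMSO. DDIT3, which encodes the CHOP transcription factor, rose by 4.08 and 3.83. The genes of serine synthesis PHGDH, PSAT1 and PSPH rose by 2.08, 3.13 and 2.28, and asparagine synthetase ASNS by 4.21. The amino acid transporters SLC7A11, SLC3A2 and SLC7A5 rose by 3.34, 2.80 and 2.00. For these 9 genes the difference from DMSO did not pass.

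The 10 largest rises under rosiglitazone, among called genes of sufficient level, were in INHBE, SLC6A9, ADM2, CHAC1, G0S2, UNC5B, SERPINA3, DDIT4, KIAA1239 and FAM129A. INHBE, a hepatokine of the activin family, was at 0.0316 to 0.0866 CPM at 24 h and at 7.43 to 12.5 CPM at 48 h, a rise of 7.43 (log2) under rosiglitazone and 7.55 under DMSO. The glycine transporter SLC6A9 went from between 0.721 and 1.45 CPM to between 93.4 and 160 CPM, and rose by 7.07 and 5.97 in the same order. Neither differed beyond DMSO in the edgeR test (adjusted p = 0.97 for INHBE and 0.12 for SLC6A9). UNC5B, a receptor for netrins, reached 43.1, 86.0, 155 and 72.7 CPM at 48 h of rosiglitazone from 1.28 to 1.67 CPM, and FAM129A reached 43.9, 84.4, 160 and 96.3 CPM from 2.31 to 2.97 CPM. In both, replicate 3 was the highest and replicate 1 the lowest. ADM2, a peptide hormone of the calcitonin family, rose by 1.28 more than under DMSO (adjusted p = 0.0073 by edgeR), a difference that missed the threshold in 12 of the 16 fits that left out 1 library.

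In the unfolded protein and heat shock list, 4 of 18 members passed as higher and 12 as lower under rosiglitazone, with a median of -0.73 (log2) and of -0.71 under DMSO. HERPUD1, a component of ER-associated degradation, rose by 2.39 and XBP1, a transcription factor of the unfolded protein response, by 1.54. The chaperones fell: HSPA8 went from between 4590 and 5180 CPM to between 1580 and 1800 CPM, and SDF2L1 fell by 2.09. HSPA1A and HSPA1B fell by 1.24 and 1.22, values that are uncertain because these genes are near-identical copies. No member passed beyond DMSO.

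**Figure D3:**
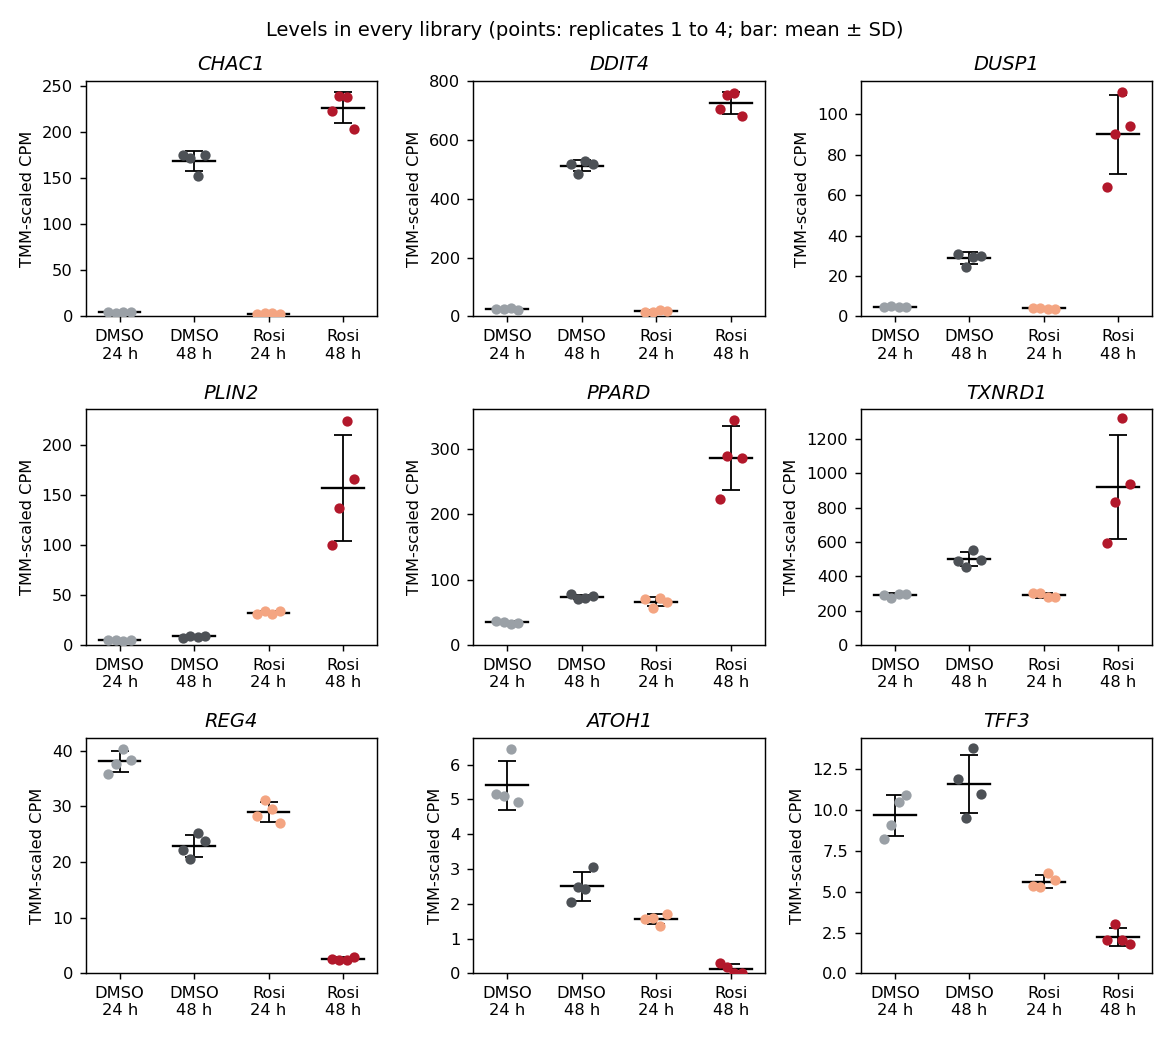
Level of 9 genes in each library (vertical axis, TMM-scaled CPM from 0) for DMSO and rosiglitazone (Rosi) at 24 and 48 h, with points for replicates 1 to 4 in order and bars for mean ± SD. CHAC1, DDIT4, DUSP1, PLIN2, PPARD and TXNRD1 rise with time under both conditions and further under rosiglitazone. REG4, ATOH1 and TFF3 are lowest at 48 h of rosiglitazone.

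Of 22 AP1 subunits and other immediate early genes, 20 were tested, of which 19 passed as higher and 1, the antiproliferative gene BTG2, as lower under rosiglitazone. The median was 1.74 (log2), against 1.5 under DMSO. EGR1, an immediate early transcription factor, was at 88.4, 68.3, 78.4 and 65.3 CPM at 24 h and at 2080, 1850, 1040 and 1170 CPM at 48 h. It rose 20.4-fold (log2 4.35 ± 0.19, adjusted p = 1.1e-18 by edgeR), and its rise under DMSO was 4.31. ATF3, which is both an AP1 partner and an ATF4 target, rose by 4.86 under rosiglitazone and 5.30 under DMSO. The AP1 subunit FOSL1 was at 36.1, 36.6, 31.1 and 35.0 CPM at 24 h and at 140, 167, 172 and 152 CPM at 48 h. It rose by 2.19, beyond DMSO by 0.66 ± 0.11 (adjusted p = 0.00038 by edgeR). JUN and KLF6 also rose further than under DMSO, by 0.62 (adjusted p = 0.0012) and 0.55 (adjusted p = 6.9e-05), and were named after their values were seen. FOS, FOSB and JUNB rose by 2.05, 1.74 and 1.48, and their differences from DMSO, between -0.19 and -0.11, did not pass.

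All 25 genes of EGFR ligands and MAPK feedback were tested, and 18 passed as higher and 2 (ERBB2 and SPRY1) as lower under rosiglitazone. DUSP1 (ENSG00000120129.4), a phosphatase that turns off MAP kinases, was at 4.33, 4.13, 3.70 and 3.78 CPM at 24 h and at 64.2, 90.3, 111 and 94.2 CPM at 48 h. In DMSO it was at 4.56 to 5.27 CPM and then at 24.6 to 31.0 CPM. At 24 h DUSP1 was slightly lower with the drug, and at 48 h each rosiglitazone library was above each DMSO library. It rose 22.5-fold (log2 4.49 ± 0.15, adjusted p = 4.5e-22 by edgeR), beyond DMSO by 1.91 ± 0.20 (adjusted p = 2.5e-07). The ligands AREG, HBEGF and EREG rose by 4.04, 4.08 and 3.48, against 3.58, 4.73 and 3.07 under DMSO, and none of the 3 differences passed. The value of AREG is uncertain because its near-identical copy AREGB is counted separately. ERRFI1, an inhibitor of the receptor, rose by 3.84 and 3.89. PHLDA1 and DUSP6, both feedback genes, passed beyond DMSO as higher, by 0.46 and 0.43, and the receptor inhibitor SPRY4 as lower, by 0.65 in size (rise of 0.53 under rosiglitazone and 1.18 under DMSO). These 3 genes were named after their values were seen.

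Genes of the cell cycle fell with time under both conditions. All 34 genes of DNA replication were tested, of which 32 passed as lower and CDC6 as higher, compared with 20.9% lower over all genes. The median was -0.98 (log2) under rosiglitazone and -0.83 under DMSO, and in edgeR 0 members passed beyond DMSO. UHRF1, which maintains DNA methylation after replication, was at 155, 141, 153 and 140 CPM at 24 h and at 54.8, 41.5, 21.2 and 30.7 CPM at 48 h. It fell by 1.99 ± 0.16 (adjusted p = 3.7e-12 by edgeR), with replicate 3 the lowest. The replicative sliding clamp PCNA fell by 1.52, and the helicase subunits MCM2 to MCM6 fell by 0.76 to 1.15. Of 30 mitosis genes, 26 passed as lower and NDC80 as higher, with a median of -0.75 and, under DMSO, of -0.63. CDC20, an activator of the anaphase-promoting complex, fell from between 237 and 254 CPM to between 68.5 and 92.4 CPM. The median difference from DMSO was -0.13 for the replication list and -0.14 for the mitosis list, against 0.02 over all genes. No mitosis gene passed beyond DMSO.

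Among cyclins, CDK inhibitors and MYC, 6 of 22 tested members passed as higher and 10 as lower under rosiglitazone. Over all genes the shares were 22.7% and 20.9%. CDKN1A, which encodes the inhibitor p21, was at 7.86, 6.78, 8.28 and 7.87 CPM at 24 h and at 68.5, 77.3, 71.3 and 77.3 CPM at 48 h. In DMSO it was at 9.68 to 12.1 CPM and then at 60.1 to 66.9 CPM. The rosiglitazone libraries were thus below DMSO at 24 h and above it at 48 h. CDKN1A rose 9.56-fold (log2 3.26 ± 0.09, adjusted p = 3.2e-24 by edgeR) and beyond DMSO by 0.77 ± 0.12 (adjusted p = 8.7e-05). MYC rose by 1.05 and CDKN2B, which encodes p15, by 2.62. CDKN2C, which encodes p18, fell by 2.55 and CCNE2, a G1/S cyclin, by 2.05. Also among the 10 largest falls were SKP2, the ubiquitin ligase subunit that marks p27 for degradation, and the transcription factor MYB. SKP2 went from 53.4, 51.4, 53.6 and 53.9 CPM to 12.9, 8.72, 4.22 and 6.81 CPM, a fall by 2.69 that was 1.90 under DMSO. MYB went from between 27.1 and 30.6 CPM to 7.30, 3.73, 2.07 and 2.81 CPM, a fall by 2.85 that was 2.01 under DMSO. For both genes the difference from DMSO missed the threshold of edgeR (adjusted p = 0.017 and 0.024).

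Of 25 genes of cholesterol synthesis and uptake, 19 passed as lower and 1 as higher. The median was -0.62 (log2) under rosiglitazone and -0.50 under DMSO, and 0 members passed beyond DMSO in edgeR. HMGCS1, which starts the mevalonate pathway, fell from between 137 and 155 CPM to between 37.9 and 65.2 CPM, by 1.58 and by 1.56 under DMSO. INSIG1, a sterol sensor, fell by 1.65. Among fatty acid synthesis and LXR lipid genes, 8 of 17 tested passed as higher and 5 as lower, with a median of 0.41 under rosiglitazone and -0.07 under DMSO. Fatty acid synthase FASN went from 4330, 3260, 4570 and 3820 CPM to 1720, 1500, 1260 and 1080 CPM and fell by 1.52. ABCA1, FADS1 and ABCG1 passed beyond DMSO as higher. ABCA1, an exporter of cholesterol that was named after its values were seen, rose by 0.45 under rosiglitazone and fell by 0.98 under DMSO, a difference of 1.43 (adjusted p = 1.29e-05 by edgeR). The desaturase FADS1 differed by 0.93 (adjusted p = 0.0018 by edgeR), which missed the threshold in a fit of the 16 rosiglitazone and DMSO libraries alone (adjusted p = 0.018). The exporter ABCG1 differed by 0.73 (adjusted p = 0.006 by edgeR), which missed the threshold in 9 of the 16 fits that left out 1 library.

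**Figure D4:**
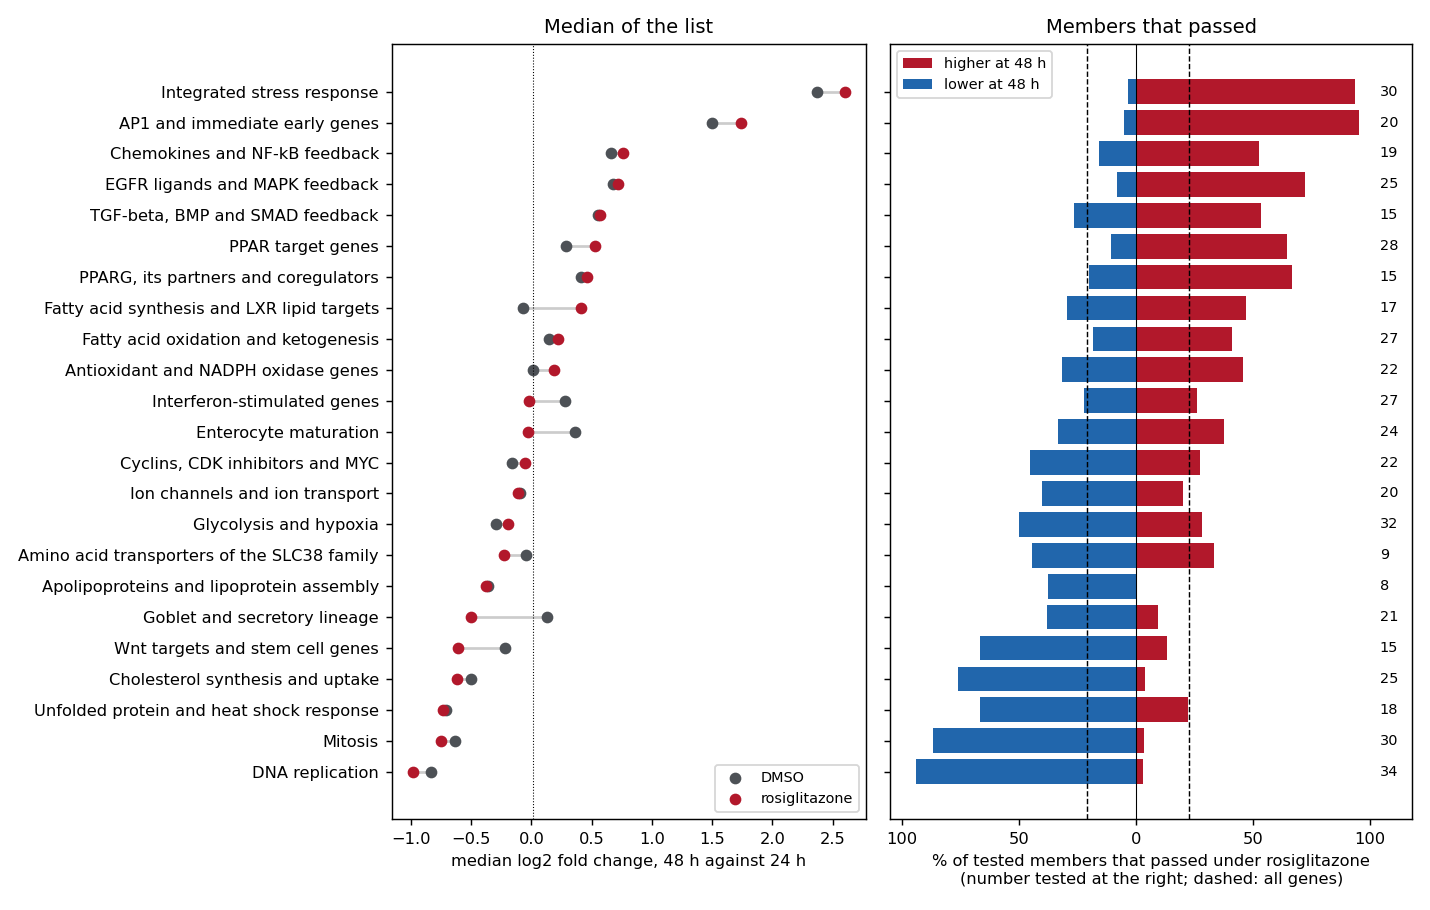
Left, median log2 fold change between 24 and 48 h of each gene list under DMSO and under rosiglitazone. Right, percent of tested members that passed as higher or as lower under rosiglitazone, with the number tested beside each bar and dashed lines at the shares over all genes (22.7% and 20.9%). Stress response and immediate early genes lie at the top and DNA replication at the bottom, and goblet lineage genes lie left of their DMSO value.

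PPARG (ENSG00000132170.15) was at 30.7, 32.6, 30.9 and 35.4 CPM at 24 h and at 50.5, 55.1, 67.6 and 61.5 CPM at 48 h. Its DMSO levels were higher at both times, at 42.0 to 47.6 CPM and then at 75.1 to 84.4 CPM. PPARG rose by 0.86 ± 0.08 (log2, adjusted p = 2.1e-11 by edgeR) and by 0.81 under DMSO, and the difference of 0.04 ± 0.11 did not pass (adjusted p = 0.87). Its partner RXRA fell by 0.46 and by 0.43. The related receptor PPARD (ENSG00000112033.9) was at 70.5, 56.5, 71.5 and 65.7 CPM and then at 224, 290, 345 and 286 CPM, beside 31.6 to 36.7 CPM and 70.1 to 77.7 CPM in DMSO. PPARD rose by 2.11 ± 0.10, beyond DMSO by 1.02 ± 0.13 (adjusted p = 1.2e-05 by edgeR), the only 1 of 15 tested receptor and coregulator genes to pass beyond DMSO as higher or lower.

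Of 31 PPAR target genes, 28 were tested, of which 18 passed as higher and 3 as lower under rosiglitazone, compared with 15 and 4 under DMSO. The median was 0.53 (log2) under rosiglitazone and 0.29 under DMSO. PLIN2 (ENSG00000147872.5), which coats lipid droplets, was at 30.7, 33.6, 31.1 and 34.3 CPM at 24 h and at 99.8, 137, 225 and 166 CPM at 48 h. In DMSO it was at 4.35 to 5.02 CPM and at 7.35 to 9.38 CPM. All rosiglitazone libraries were above all DMSO libraries at both times, and replicate 3 was again the highest at 48 h. PLIN2 rose by 2.27 ± 0.14 (adjusted p = 4.3e-15 by edgeR), beyond DMSO by 1.41 ± 0.22 (adjusted p = 0.00011). It was the only target to pass beyond DMSO as higher, and AQP3, a channel for water and glycerol, was the only one to pass as lower, by 0.51 in size. G0S2, an inhibitor of triglyceride breakdown, rose by 6.01 under rosiglitazone and 5.66 under DMSO.

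Several targets were already far above DMSO at 24 h and moved little afterwards. PDK4, a kinase that shuts pyruvate dehydrogenase, went from 24.7, 30.6, 28.8 and 27.8 CPM to 33.5, 39.0, 46.8 and 44.4 CPM, beside means of 4.66 and 4.44 CPM in DMSO. It rose by 0.55, and the difference of 0.62 from DMSO just missed the threshold (adjusted p = 0.011 by edgeR). ANGPTL4, an inhibitor of lipoprotein lipase, was at 21.4, 17.9, 21.6 and 18.9 CPM and then at 20.4, 27.3, 35.5 and 26.6 CPM, groups that overlap, with a change of 0.46 that did not pass (adjusted p = 0.056 by edgeR). The acyl-CoA synthetases ACSL5 and ACSL3 rose by 0.53 and 0.36, while the change of ACSL1 was -0.11 (adjusted p = 0.083 by edgeR). CPT1A, the gate of mitochondrial fatty acid oxidation, fell by 0.16 at an adjusted p of 0.0085 in edgeR that did not hold in most fits with 1 library left out. FABP1, a fatty acid binding protein, rose by 0.91 from a mean of 18.4 to 34.6 CPM. FABP4, its adipocyte relative, was at 0.49 to 1.01 CPM at 24 h and at 0.0262 to 0.191 CPM at 48 h of rosiglitazone, with 0 counts in DMSO at both times. Its fall by 3.11 passed in edgeR (adjusted p = 0.00014) and not in DESeq2 (adjusted p = 0.32). Among 27 genes of fatty acid oxidation and ketogenesis, 11 passed as higher and 5 as lower, beside 22.7% and 20.9% of all genes. ETFA, an electron carrier of oxidation, was the only one of the 27 to pass beyond DMSO in the main fit (difference of 0.32, named after its values were seen). In the alternatives that tested for any change, 0 to 2 of the 27 passed as higher and 0 to 2 as lower.

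Of 24 goblet and secretory genes, 21 were tested, of which 8 passed as lower and 2 (the mucin MUC5AC and the protease inhibitor SPINK1) as higher under rosiglitazone. Under DMSO 3 passed in each direction, and the medians were -0.50 (log2) and 0.13. Over all genes, 20.9% passed as lower and 22.7% as higher under rosiglitazone, and 1.06% as lower beyond DMSO. Beyond DMSO, 6 members passed as lower and 0 as higher, and 5 to 8 did as lower in the alternatives that tested for any change, against 2 in the test against a fold of 1.5. REG4 (ENSG00000134193.9), a secreted lectin of secretory cells, was at 28.3, 31.2, 29.5 and 27.1 CPM at 24 h and at 2.59, 2.46, 2.40 and 2.98 CPM at 48 h. In DMSO it was at 35.9 to 40.4 CPM and then at 20.6 to 25.2 CPM. The 4 libraries at 48 h of rosiglitazone lay close together and far below all others. REG4 fell by 3.48 ± 0.08 (adjusted p = 1.6e-25 by edgeR), an 11.1-fold lower level, and its difference from DMSO was -2.75 ± 0.11 (adjusted p = 1.5e-18).

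ATOH1 (ENSG00000172238.3), the transcription factor that specifies secretory cells, was at 1.56, 1.59, 1.36 and 1.71 CPM and then at 0.288, 0.195, 0 and 0 CPM. In DMSO it went from between 4.91 and 6.44 CPM to between 2.06 and 3.05 CPM. It was thus below DMSO in each library at both times. ATOH1 fell by 3.61 ± 0.34 (log2, adjusted p = 6.7e-11 by edgeR), and its difference from DMSO was -2.50 ± 0.41 (adjusted p = 0.00022). TFF3, a trefoil peptide secreted with mucus, was at 5.32, 5.31, 6.13 and 5.70 CPM and then at 2.04, 3.01, 2.04 and 1.77 CPM, while in DMSO it was at 8.22 to 10.9 CPM and 9.50 to 13.8 CPM. Its groups were apart under rosiglitazone and overlapped under DMSO. TFF3 fell by 1.34 ± 0.14 with a difference of -1.60 ± 0.18 (adjusted p = 6.5e-07 by edgeR). AGR2, a disulfide isomerase needed for mucin folding, fell by 1.19 under rosiglitazone and 0.44 under DMSO (difference of -0.75, adjusted p = 9.5e-06 by edgeR). DLL1, a Notch ligand, and NEUROG3, an enteroendocrine transcription factor, were the other members to pass, with differences of -1.21 and -0.95, and were named after their values were seen. For the main intestinal mucin MUC2 the values were 0.39 and 0.41 under rosiglitazone and DMSO, and neither these nor the difference of -0.02 passed.

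Of 24 tested enterocyte genes, 9 passed as higher and 8 as lower under rosiglitazone, and 3 passed beyond DMSO as lower. Over all genes, 22.7% passed as higher and 20.9% as lower, and 1.06% as lower beyond DMSO. CDX2, an intestinal identity factor, went from 17.3, 18.6, 20.8 and 19.2 CPM to 6.46, 7.23, 6.89 and 6.74 CPM. It fell by 1.48 ± 0.12 (log2), by 0.98 more than under DMSO (adjusted p = 0.00032 by edgeR). TSPAN1 and DPP4, the others to pass, differed by -0.53 and -0.66 and were named after their values were seen. KLF4 and KRT20, both raised in differentiated epithelium, rose by 2.16 and 0.75 without passing beyond DMSO. Of 15 tested Wnt targets and stem cell genes, 10 passed as lower and 2 (DKK1 and RNF43) as higher. The stem cell receptor LGR5 went from 7.78, 9.75, 10.2 and 10.4 CPM to 4.84, 3.37, 1.01 and 2.49 CPM and fell by 1.70 under either condition. PROM1, AXIN2 and SP5 passed beyond DMSO as lower, with differences of -0.64, -0.48 and -0.88. PROM1 and AXIN2 were named after their values were seen, SP5 missed the threshold in 13 of the 16 fits that left out 1 library, and the number of Wnt genes to pass as lower was 1 to 5 in the alternatives that tested for any change and 0 in the test of edgeR against a fold of 1.5.

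CLDN2 (ENSG00000165376.6), a claudin that makes tight junctions permeable to cations, was at 13.2, 16.4, 15.3 and 14.6 CPM at 24 h and at 3.53, 1.69, 0.899 and 1.64 CPM at 48 h. In DMSO it was at 10.8 to 15.0 CPM and then at 5.38 to 6.25 CPM. The groups did not overlap under either condition, which under rosiglitazone was a condition of naming the largest falls. CLDN2 fell by 2.92 ± 0.20 (log2), with a difference from DMSO of -1.78 ± 0.27 (adjusted p = 7.6e-05 by edgeR). FGF19, an enterokine of bile acid control, was at 8.42 to 11.3 CPM at 24 h and at 14.2, 10.7, 3.46 and 6.61 CPM at 48 h of rosiglitazone, a change of -0.13 that did not pass (adjusted p = 0.63) and was 0.14 without replicate 3. In DMSO it rose from between 20.8 and 23.6 CPM to between 57.0 and 73.5 CPM, so that the difference was -1.70 ± 0.28 (adjusted p = 0.00026 by edgeR). CXCR4, a chemokine receptor, rose by 1.08 in DMSO, while its value of -0.49 under rosiglitazone did not pass unless replicate 1 at 48 h was left out (adjusted p = 0.0044), and it had a difference of -1.56 ± 0.24 (adjusted p = 1e-04 by edgeR). Of 20 tested ion channel and transport genes, 8 passed as lower and 4 as higher. Beyond DMSO 6 of them passed as lower and 1 (SLC9A2) as higher. The shares over all genes were 20.9% lower and 22.7% higher, and beyond DMSO 1.06% and 1.38%. The bicarbonate cotransporter SLC4A4 went from 9.94, 12.6, 11.1 and 11.3 CPM to 5.54, 5.58, 4.06 and 3.80 CPM, with a difference of -0.87 (adjusted p = 0.0021 by edgeR). The chloride channel CFTR, named after its values were seen, had a value of -0.17 under rosiglitazone that did not pass and rose by 0.51 under DMSO, with a difference of -0.67 (adjusted p = 0.0082 by edgeR). Without replicate 3 of rosiglitazone at 24 h only 2 ion transport genes passed beyond DMSO as lower.

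The antioxidant and NADPH oxidase genes had 7 members that passed beyond DMSO as higher, of 22 tested. Of the 22, 10 passed as higher and 7 as lower with time under rosiglitazone, and 6 and 7 under DMSO. The medians were 0.19 (log2) under rosiglitazone and 0.01 under DMSO. Over all genes, 22.7% passed as higher and 20.9% as lower under rosiglitazone, and 1.38% as higher beyond DMSO. TXNRD1, a thioredoxin reductase, was at 304, 301, 277 and 277 CPM at 24 h and at 592, 834, 1320 and 940 CPM at 48 h. In DMSO it was at 274 to 297 CPM and then at 456 to 553 CPM, so that all rosiglitazone libraries at 48 h were above all others. It rose by 1.67 ± 0.13 (log2), beyond DMSO by 0.89 ± 0.17 (adjusted p = 0.0017 by edgeR). GCLC, the catalytic subunit of the first enzyme of glutathione synthesis, was at 98.6 to 105 CPM and then at 205, 298, 517 and 358 CPM, with a difference of 1.02 ± 0.20 (adjusted p = 0.0015). SRXN1, a sulfiredoxin, differed by 0.99 ± 0.16 (adjusted p = 0.00022). NQO1, GPX3 and GPX4, named after their values were seen, differed by 0.45, 0.58 and 0.31. The oxidase NOX1 passed as lower, with a rise of 1.87 under DMSO and a value of 0.61 under rosiglitazone that did not pass (adjusted p = 0.0132 by edgeR). For TXNRD1, GCLC and SRXN1, replicate 1 was the lowest and replicate 3 the highest library at 48 h. GCLC and TXNRD1 missed the threshold in a fit of the 16 rosiglitazone and DMSO libraries alone (adjusted p = 0.015 and 0.014 by edgeR). Between 4 and 8 members passed as higher in the alternatives that tested for any change, and 0 in the test of edgeR against a fold of 1.5.

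Other genes chosen for their difference from DMSO were POU2F2, AKR1C2, NDRG1, AHNAK2 and RHOF. NDRG1, a gene raised by hypoxia and other stresses, went from 9.57, 10.1, 11.8 and 9.85 CPM to 38.6, 63.1, 121 and 67.9 CPM, with a difference of 1.55 ± 0.26 (log2, adjusted p = 0.00032 by edgeR). RHOF, a small GTPase of filopodia, went from 63.4, 56.6, 63.1 and 60.8 CPM to 152, 240, 429 and 275 CPM, with a difference of 1.52 ± 0.22 (adjusted p = 3.3e-05). In both, the highest library at 48 h was replicate 3 and the lowest replicate 1. POU2F2, a POU domain transcription factor, went from between 1.62 and 2.26 CPM to between 5.31 and 6.71 CPM, while its DMSO means were 1.35 and 1.36 CPM. Its difference of 1.63 missed the threshold without replicate 1 or 4 of DMSO at 24 h (adjusted p = 0.012 and 0.013 by edgeR), and that of AHNAK2 (1.53) without replicate 4 (adjusted p = 0.01). Both also missed it in the fit of 16 libraries (adjusted p = 0.01 and 0.018). AKR1C2, an aldo-keto reductase whose reads may be shared with near-identical family members, was at 5.96, 7.39, 23.6 and 10.7 CPM at 48 h, and its difference of 1.56 fell to 0.98 without replicate 3 (adjusted p = 0.013 by edgeR). Mean AKR1C2 was 2.86 and then 11.9 CPM under rosiglitazone, beside 5.11 and then 7.2 CPM under DMSO. Among glycolysis and hypoxia genes, 9 of 32 tested passed as higher and 16 as lower, beside 22.7% and 20.9% of all genes. NDRG1, PFKP, ALDOA and ENO1 passed beyond DMSO as higher. VEGFA rose by 3.08 under rosiglitazone and by 2.94 under DMSO. ALDOA and ENO1 fell by 0.29 and 0.41 under rosiglitazone and by 0.72 and 0.77 under DMSO.

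In 20 genes the time change passed in opposite directions under rosiglitazone and DMSO, and each of these also passed beyond DMSO. The examples given here were named after their values were seen. LTC4S, a leukotriene synthase, TAS1R3, a taste receptor subunit, ABCA1 and AKR1B10, an aldo-keto reductase, were higher at 48 h under rosiglitazone and lower under DMSO. AKR1B10 went from a mean of 219 to 336 CPM under rosiglitazone and from 116 to 77.3 CPM under DMSO. The other 16 went the other way, among them SERPINA1, a protease inhibitor, which went from a mean of 75.4 to 39.2 CPM under rosiglitazone and from 128 to 161 CPM under DMSO. The endothelin gene EDN1 fell by 0.61 (log2) under rosiglitazone and rose by 0.56 under DMSO. Among the 1974 genes called under DMSO, 83.9% passed in the same direction under rosiglitazone. For all 1974 genes, the median change in the direction of the DMSO change was 1.47 (log2) under rosiglitazone. Under DMSO their median absolute change was 1.39. Over all genes tested the time changes had a Pearson correlation of 0.773 across genes, given as a description, since genes are not replicates.

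Of 27 interferon-stimulated genes tested, 7 passed as higher and 6 as lower, shares close to those over all genes (22.7% and 20.9%), with OAS1, an activator of RNase L named after its values were seen, lower beyond DMSO by 0.89 in size. OAS3, of the same family, fell by 1.76. Of 19 chemokine and NF-kB feedback genes tested, 10 passed as higher and 3 as lower. LCN2, an iron-trapping protein, rose by 3.15 (log2), and its difference of 0.68 from DMSO lay at the threshold and was lost in 13 of the 16 fits that left out 1 library. Of 15 tested TGF-beta and BMP genes, 8 passed as higher and 4 as lower. The membrane protein PMEPA1 went from 159, 133, 154 and 154 CPM to 248, 339, 387 and 280 CPM, with a difference of 0.74 ± 0.15 (adjusted p = 0.0019 by edgeR), and BMP4 fell by 1.29. Of 9 SLC38 amino acid transporters tested, 3 passed as higher and 4 as lower, and SLC38A2, which is induced when amino acids are short, rose by 2.13 under both conditions. Of 8 apolipoprotein and lipoprotein assembly genes tested, 3 passed as lower and 0 as higher in edgeR. None of the SLC38 or lipoprotein genes passed beyond DMSO.

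The time change under rosiglitazone was also set against that under GW3965, a contrast that shares its rosiglitazone libraries with the one above. Many more genes differed here, with 3564 that passed as higher (15.4%) and 3071 as lower (13.3%). Of the 28 stress response genes that passed as higher under rosiglitazone, 27 also passed as higher beyond GW3965, the exception being NUPR1, and the median difference of the list was 1.89 (log2), against 0.00 over all genes. Among immediate early genes, 19 of 20 passed as higher beyond GW3965 with a median of 1.52, and among EGFR ligand and MAPK genes 16 of 25 passed as higher. AREG differed by 4.38 (adjusted p = 8.2e-20 by edgeR) and DUSP1 by 4.14 (adjusted p = 1.2e-16). These differences do not by themselves mark a rise as particular to rosiglitazone, because the lists also rose under DMSO. The median of the stress response list was 2.60 under rosiglitazone and 2.37 under DMSO. Mean AREG went from 21.2 to 16.7 CPM under GW3965 and from 21.1 to 253 CPM under DMSO. For CHAC1 the means went from 27.7 to 65.7 CPM and from 4.78 to 169 CPM in the same order. In the cholesterol list 15 of 25 genes passed as lower, and in the goblet list 9 of 21. REG4 differed by -2.55 (adjusted p = 1.3e-18 by edgeR), which is close in size to its difference from DMSO. PLIN2 differed by 1.62 (adjusted p = 5.8e-08), while NDRG1 differed by 0.71, which did not pass (adjusted p = 0.026).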

How the data were processed

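RNA of HT29 cells was sequenced as paired-end Nextera libraries of mRNA. The authors deposited whole-number read counts per gene in 1 table per time point, and no column of another sample was found in them (0). The submitters' processing notes name TopHat, Cufflinks and the hg19 build. Which program counted the reads, and with which strand setting, is not given in those notes or the methods, so overlapping and antisense genes cannot be told apart.

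Groups were taken from the labels. Of 51838 genes, 23140 passed edgeR's filter on low counts. The quasi-likelihood test of edgeR (4.0.16, R 4.3.3) was fitted to all 32 RNA libraries, which share 1 estimate of spread, with TMM factors and 8 groups for treatment and time. Contrasts were 48 h minus 24 h under rosiglitazone, the same under DMSO, and their difference (also against GW3965). Passed means a Benjamini-Hochberg adjusted p under 0.01, and called adds a fold of at least 2. The fit was tested on simulated data. No replicate pair was a duplicate. Same-numbered samples did not deviate together (correlations from -0.13 to 0.17).

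The members and the 27 lists were chosen with earlier results of these data known. Named genes were the 10 largest rises and falls among called genes at an average log2 CPM of at least 1 whose groups did not overlap, the 6 largest differences from DMSO in each direction, PPARG, RXRA, fixed PPAR targets and up to 4 passed members per list, with clone-named transcripts passed over. Other genes are said to have been named after their values were seen. Alternatives were DESeq2 1.42.0, other scalings, no filter, fewer libraries, other fold limits, a replicate block and leaving out each library. Chromatin peak files were not used here, and some items are not reported here.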

Additional observations from a re-analysis of the deposited data

Results flagged for a closer look

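In 23 of 500 groups of 4 libraries checked among the named genes and lists, the highest or lowest library lay far from the other 3, a gap that chance gives in about 1 in 20 groups. In DMSO 48 h these were UNC5B in replicate 2 (41.2 CPM), AKR1C2 in replicate 3 (8.67 CPM), RELB in replicate 2 (42.4 CPM), OASL in replicate 2 (7.2 CPM) and SKP2 in replicate 2 (19.6 CPM). In DMSO 24 h these were KIAA1239 in replicate 3 (0.356 CPM), KLF10 in replicate 1 (30.5 CPM), GCLC in replicate 1 (80 CPM), DKK1 in replicate 1 (11.1 CPM), CXCL3 in replicate 2 (0.288 CPM), ACADSB in replicate 2 (1.92 CPM), ACSL3 in replicate 3 (136 CPM), LYZ in replicate 3 (531 CPM), HSPA8 in replicate 1 (4700 CPM) and ATOH1 in replicate 3 (6.44 CPM). In rosiglitazone 24 h these were ATF3 in replicate 3 (5.47 CPM), CXCR4 in replicate 2 (4.36 CPM), NOXO1 in replicate 2 (28.8 CPM), SLC26A6 in replicate 3 (102 CPM), EPHB3 in replicate 3 (41.4 CPM) and GINS1 in replicate 2 (36.8 CPM). In rosiglitazone 48 h these were APOH in replicate 2 (9.43 CPM) and PPARGC1B in replicate 4 (12 CPM). 

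For 34 named genes the change between 24 and 48 h differed between rosiglitazone and DMSO by the test of the difference itself in edgeR, given here as log2 of rosiglitazone minus DMSO. The time change was more positive under rosiglitazone for DUSP1 (1.91), POU2F2 (1.63), AKR1C2 (1.56), NDRG1 (1.55), AHNAK2 (1.53), RHOF (1.52), PLIN2 (1.41), ADM2 (1.28), DDIT4 (1.11), CHAC1 (1.03) and PPARD (1.02). The same held for GCLC (1.02), SRXN1 (0.99), SESN2 (0.97), FADS1 (0.93), TXNRD1 (0.89), CDKN1A (0.77), PMEPA1 (0.74), ABCG1 (0.73), LCN2 (0.68) and FOSL1 (0.66). It was more negative for SLC26A6 (-0.69), AGR2 (-0.75), SLC4A4 (-0.87), SP5 (-0.88), B3GNT1 (-0.96), CDX2 (-0.98), ITPKB (-1.14), CXCR4 (-1.56), TFF3 (-1.60), FGF19 (-1.70), CLDN2 (-1.78), ATOH1 (-2.50) and REG4 (-2.75).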

How the results depend on the processing

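Under rosiglitazone, the numbers of genes called higher and lower lay between 1613 and 1869 and between 966 and 1386 when single libraries were left out, and under DMSO between 1106 and 1198 and between 708 and 837. Beyond DMSO they lay between 38 and 111 and between 35 and 137, with the lowest without replicate 3 and the highest without replicate 1 of rosiglitazone at 48 h. Without replicate 4 of DMSO at 24 h, 42 genes were called higher. Called genes beyond GW3965 numbered between 1718 and 2538. With a fold of at least 1.5, the counts were 3301 and 2765 under rosiglitazone, 2511 and 2220 under DMSO, 183 and 156 beyond DMSO and 4484 beyond GW3965. A test against a fold of 1.5 left 4 higher and 6 lower genes beyond DMSO. Genes called lower beyond DMSO numbered 99 with library size alone and 40 in a fit of the 16 rosiglitazone and DMSO libraries. The cause was not tested. With the replicate number as a block, 1750 and 1161 genes were called under rosiglitazone and 62 and 59 beyond DMSO. DESeq2 called 1755 and 1199, and 78 and 81. Without replicates 1 and 3 of rosiglitazone at 48 h, chosen after seeing the data, 1654 and 1137 genes were called, and 61 and 71 beyond DMSO. Of 126 single-gene changes under rosiglitazone, 106 kept direction and side of the threshold in all alternatives run. Of 34 differences from DMSO, only 3 did. The alternatives include the stricter test against a fold of 1.5, in which 47 of these 160 results missed the threshold. Some differences, such as those of CHAC1, DDIT4 and PLIN2, missed the threshold only there, and others, such as those of ADM2 and LCN2, also elsewhere. The change of FGF19, -0.13, lay between -0.49 and 0.14 when single libraries were left out, and was positive only without replicate 3 of rosiglitazone at 48 h. Depth limits genes near 0 counts, such as FABP4 and ATOH1.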
